A study of Mus musculus with 31 samples.

Results

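Fkbp5 and 7 other genes of glucocorticoid signalling were followed in the kidneys of mice with polycystic disease, giving 8 of the 23509 genes in the deposited counts. The 8 genes were taken by symbol: Fkbp5, Tsc22d3, Zbtb16, Sgk1, Klf9, Nr3c1, Hsd11b1 and Hsd11b2. The set was chosen by the values of Fkbp5, whose level was lower in diseased than in wild-type kidneys and higher with drug than without it, so those values of Fkbp5 in these comparisons are a description and carry no test. The other 7 genes were tested together with all 15185 genes that passed a filter on low counts, and all 7 passed that filter.

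Glucocorticoids enter cells and bind the glucocorticoid receptor, which is held in the cytoplasm by chaperones and, once bound, moves to the nucleus and switches genes on or off at palindromic DNA elements. Fkbp5 encodes a cochaperone that lowers the affinity of the receptor for hormone and is itself induced by the receptor, which makes it a widely used readout of glucocorticoid action. In the kidney, Hsd11b1 regenerates active corticosteroid from its inert form, whereas Hsd11b2 inactivates it in the distal nephron and collecting duct and so protects the mineralocorticoid receptor from glucocorticoids.

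The 31 kidneys came from 12 Pcy/CD1 mice given PBS, 14 Pcy/CD1 mice given subcutaneous RGLS4326 and 5 untreated wild-type CD1 mice. Pcy/CD1 mice carry the Pcy mutation, which gives a slowly progressive cystic kidney disease, on the outbred CD1 background. RGLS4326 is an anti-miR, an antisense oligonucleotide drug that binds miR-17 and microRNAs sharing its seed and blocks them. Dosing at 25 mg kg−1 ran monthly from 5 to 30 weeks of age, all kidneys were taken at 30 weeks, and no group received a control oligonucleotide. The tag of the PBS samples gives weekly injection, while the protocol text reads as monthly for both arms. The wild-type mice were male by the labels, and the study describes the Pcy/CD1 mice as male. Whole kidneys were measured, so fewer cells of a type and less RNA per cell cannot be told apart. Levels are given as CPM, in which the authors' gene counts are scaled to a common library size with TMM factors.

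Counts on genes were 14892524 to 27459962 per mouse (median 19961466). RGLS4326 mouse 9 stood apart from the other treated mice: its correlation with the wild-type mean over genes was 0.993, and its level of the kidney injury gene Lcn2 was 2.76 CPM, whereas the other 13 treated mice had 126 to 607 CPM. It is labelled as a treated Pcy/CD1 mouse and was kept, and whether its label or genotype is right was not tested. Values without it are given beside calls of the 8 genes and of the gene lists that changed, and beside other values where stated. Of the wild-type pairs, mice 3 and 4 differed least (chi-square per gene 2.69, next pair 15.9) and were counted separately. Library numbers in the deposited names restart within each group and give 3 index series, used here as a technical grouping, with 2, 2 and 1 wild-type mice. Proximal tubule markers were found in all 31 kidneys at 4856 to 17596 CPM in sum, and the 6 markers of adrenal cortex were low in all of them: Cyp11b2 had 0 counts in 30 of 31 mice and at most 1 count, Cyp11b1 at most 3, Cyp11a1 at most 12, Mc2r at most 14 and Cyp21a1 1 to 19 counts, and Star, which passed the filter, had 18 to 43 counts (at most 1.97 CPM).

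The microRNA inhibited by the drug is shown first, with the only match to its seed in the longest 3′UTRs of the 8 genes. Shorter matches and other 3′UTRs were not searched. Capitals mark the seed (bases 2 to 8) in the microRNA and the letters complementary to it in the transcript, which is written as DNA, 5′ to 3′.
mmu-miR-17-5p: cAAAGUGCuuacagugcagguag
Klf9 3′UTR: cataaactGCACTTTtattttct
The mature sequence is from RefSeq and lies at chr14:115043684-115043706 on the plus strand of GRCm38.p6. The Klf9 match lies at chr19:23165705-23165711 on the plus strand of GRCm38, in exon 2 of 2, at base 793 of a 3′UTR of 3222 bases. It pairs with bases 2 to 8 and is not followed by an A. No match to GCACTTT was present in the longest annotated 3′UTR of Fkbp5, Tsc22d3, Zbtb16, Sgk1, Nr3c1, Hsd11b1 or Hsd11b2, which says only that these letters are not in those windows. Of 21005 genes with an annotated 3′UTR, 2470 (11.8%) held at least 1 match, so 1 match among 8 genes is near the share of all genes.

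The receptor's own element was searched on both strands in RefSeq promoter windows of 300 bases (250 before to 50 after each start), which were given for 5 of the 8 genes: Fkbp5, Tsc22d3, Sgk1, Klf9 and Hsd11b1. Of 32851 promoter windows in the mouse table, 19% held the half-site AGAACA, 6.85% held the core ACANNNTGT and 3 windows (0.00913%) held the full palindrome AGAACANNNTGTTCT, which contains both shorter motifs. A promoter of Sgk1, the kinase that keeps sodium channels at the cell surface, was one of these 3. The stretch around it is at chr10:21993671-21993746 on the plus strand of GRCm38.p6, the palindrome begins 189 bases before that start site, and capitals mark its letters.
Sgk1 promoter: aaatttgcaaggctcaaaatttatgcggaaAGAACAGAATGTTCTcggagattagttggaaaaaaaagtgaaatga
A second Sgk1 promoter held the core alone, in capitals here, 127 bases before its start, at chr10:21978512-21978587 on the plus strand.
Sgk1 second promoter: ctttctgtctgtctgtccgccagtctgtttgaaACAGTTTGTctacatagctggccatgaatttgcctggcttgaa
Half-sites without the core also lay in other Sgk1 windows. One promoter of Tsc22d3 held a half-site, and the windows of Fkbp5, Klf9 and Hsd11b1 held none of the 3 motifs. The windows numbered 6 for Sgk1, 3 for Tsc22d3 and 1 each for Fkbp5, Klf9 and Hsd11b1. Hits per gene are therefore not comparable with the shares per window. A match is not a binding site, and the data here do not measure binding.

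Fkbp5 lies at chr17:28399094-28517527 on the minus strand of GRCm38. In wild-type mice 1 to 5 it read 127, 169, 137, 132 and 108 CPM. The PBS group ranged from 44.5 to 79.9 CPM (median 57.7), and all 12 PBS mice were below the lowest wild-type mouse. The RGLS4326 group ranged from 63.9 to 124 CPM (median 89.9). Of its 14 mice, 9 were above the highest PBS mouse, 14 were above the PBS median and 4 were within the wild-type range. Its mean and SD were 135 ± 22.2 CPM for wild type (n = 5), 59.0 ± 9.86 CPM for PBS (n = 12) and 91.1 ± 20.8 CPM for RGLS4326 (n = 14). The log2 fold change was −1.19 (standard error 0.14) for PBS against wild type, 0.63 (0.11) for RGLS4326 against PBS and −0.56 (0.14) for RGLS4326 against wild type. Within the 3 index series the RGLS4326 against PBS value was 0.50, 0.44 and 0.89, and it was 0.58 without RGLS4326 mouse 9. The RGLS4326 against wild type value moved from −0.90 and −0.56 in the first and second series to −0.07 in the third, which has 1 wild-type mouse, the lowest of the 5 at 108 CPM.

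**Figure D1:**
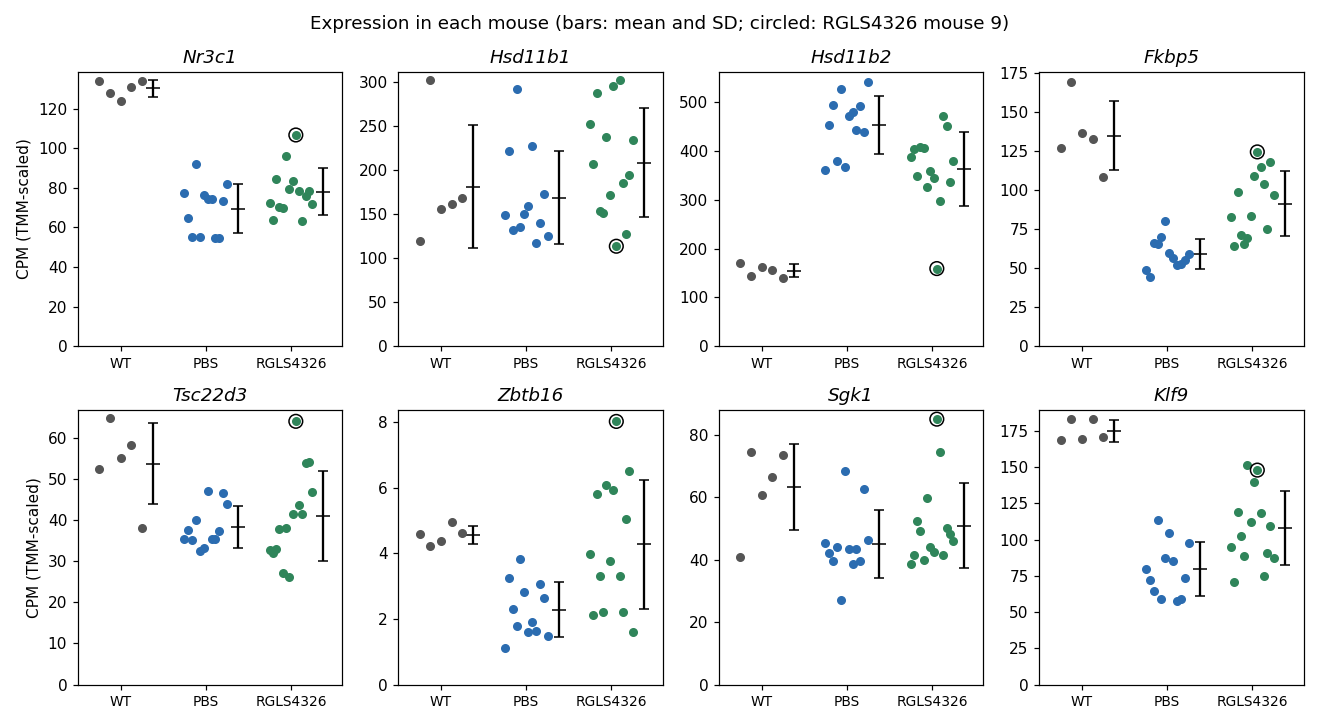
CPM of each gene (vertical axes, from 0) in each mouse of the wild-type, PBS and RGLS4326 groups, with the group mean and SD as bars and RGLS4326 mouse 9 circled. All 12 PBS mice lie below all 5 wild-type mice for Fkbp5, Zbtb16, Klf9 and Nr3c1, and above them for Hsd11b2. Fkbp5 was chosen by these values. The share of all genes separated in this way was not computed, and 36.6% of all genes were lower and 37.7% higher in this contrast.

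Between PBS and wild type, 5 of the 7 other genes were lower (Tsc22d3, Zbtb16, Sgk1, Klf9 and Nr3c1), Hsd11b2 was higher and Hsd11b1 did not pass the test. Over all 15185 genes, 36.6% were lower and 37.7% higher at the same threshold (adjusted p under 0.05, quasi-likelihood test of edgeR, adjusted over all genes by Benjamini-Hochberg), so most expressed genes differed in the cystic kidney and a call on its own says little. The share of all genes without overlap between groups was not computed, so the overlap counts given by gene have no background beside them. Between RGLS4326 and PBS, Zbtb16 and Klf9 were higher, Hsd11b2 was lower and 4 genes did not pass. The background was 9.15% of genes higher and 6.66% lower. That background of 2402 genes moved between 618 (without PBS mouse 10) and 3999 (without RGLS4326 mouse 2) when single mice were left out, and was 1234 without RGLS4326 mouse 9 (4.66% higher and 3.48% lower). With only the RGLS4326 and PBS mice in the fit 5.25% were higher and 4.83% lower, and with an absolute log2 fold change over 0.5 also required 0.935% were higher and 1.22% lower. Between RGLS4326 and wild type, 3 genes remained lower (Tsc22d3, Klf9 and Nr3c1) and Hsd11b2 higher, against 32.4% and 32.5% of all genes. The RGLS4326 contrasts share their PBS or wild-type mice with the PBS contrast, so the values of the 3 contrasts are not independent of each other.

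**Figure D2:**
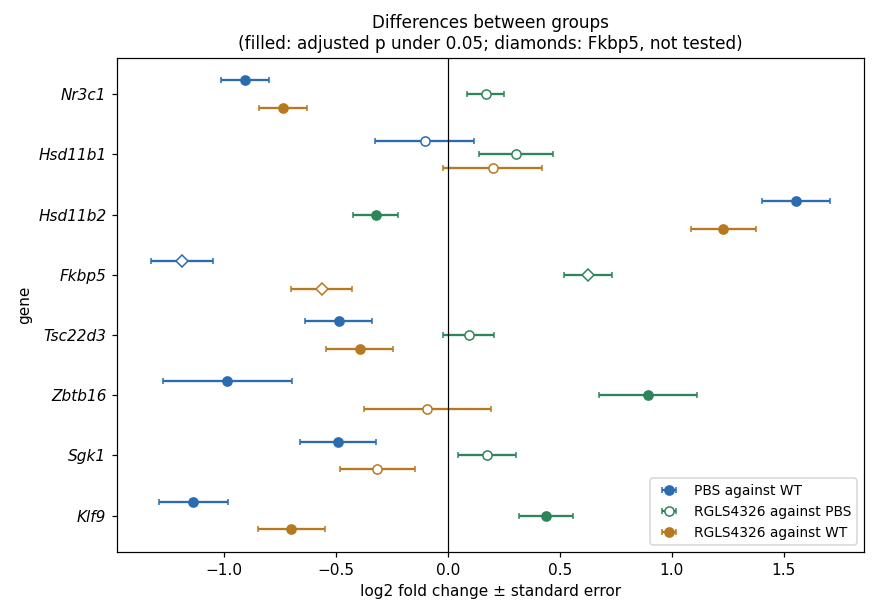
Log2 fold change (horizontal axis) with its standard error for each gene in the 3 contrasts, from one edgeR fit of 31 mice, with filled points for adjusted p under 0.05 and open diamonds for Fkbp5, which was not tested. Klf9 and Zbtb16 sit left of 0 for PBS against wild type and right of 0 for RGLS4326 against PBS, and Hsd11b2 shows the opposite order.

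Nr3c1 encodes the glucocorticoid receptor itself and lies on chromosome 18 (39410545 to 39519421, minus strand of GRCm38). Wild-type mice 1 to 5 read 134, 128, 124, 131 and 134 CPM, whereas PBS mice ranged from 54.6 to 92.1 CPM (median 73.9) and RGLS4326 mice from 63.2 to 107 CPM (median 77.1). Every PBS and every RGLS4326 mouse was below the lowest wild-type mouse. Nr3c1 fell by 0.91 on the log2 scale (standard error 0.11) with PBS against wild type (adjusted p = 3.3e-08, edgeR), and the value was −0.86, −0.85 and −1.0 in the 3 index series. The RGLS4326 against PBS value of 0.17 (standard error 0.08; 95% interval −0.0011 to 0.34) missed the threshold (unadjusted p = 0.0514, adjusted p = 0.138, edgeR). The receptor transcript thus stayed below wild type with drug (log2 fold change −0.74, adjusted p = 1.5e-06, edgeR).

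Hsd11b2 was the only one of the 7 tested genes that passed as higher in the diseased kidney. It encodes 11β-hydroxysteroid dehydrogenase type 2, which inactivates corticosteroid, and lies at chr8:105518755-105523988 on the plus strand. It read 172, 144, 162, 156 and 140 CPM in wild-type mice 1 to 5, 362 to 542 CPM with PBS (median 463) and 159 to 472 CPM with RGLS4326 (median 370). All 12 PBS mice were above the highest wild-type mouse, 7 of 14 RGLS4326 mice were below the lowest PBS mouse, and 1 RGLS4326 mouse, mouse 9, was within the wild-type range. PBS kidneys held 2.94 times the wild-type level (log2 fold change 1.55, standard error 0.15, adjusted p = 2.6e-09, edgeR). With RGLS4326 against PBS it fell by 0.32 on the log2 scale (adjusted p = 0.0352, edgeR; standard error 0.10). This call was lost on leaving out any 1 of PBS mice 2, 3, 5, 9 and 10 or RGLS4326 mice 3, 6, 8, 10 and 13 (adjusted p 0.0514 to 0.0690), whereas without RGLS4326 mouse 9 it was −0.26 (adjusted p = 0.0293). With only the PBS and RGLS4326 mice in the fit the adjusted p was 0.0519, and the call also ends if an absolute log2 fold change over 0.5 is required.

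Hsd11b2 is made by principal cells of the collecting duct, and the markers of that cell moved with it. All 3 of 3 principal cell markers (Aqp2, Aqp3 and Avpr2) were higher with PBS than in wild type and all 3 were lower with RGLS4326 than with PBS, beside 37.7% of all genes higher in disease and 6.66% lower with drug. Their summed level was 268 to 626 CPM in wild type, 917 to 2290 CPM with PBS and 567 to 1499 CPM with RGLS4326 (median 1074, lowest in mouse 9), with no marker at 0 in any group, and the part of this in the Hsd11b2 result was not tested. The epithelial sodium channel, which those cells carry and which aldosterone acts on, moved in the same directions. All 3 subunits (Scnn1a, Scnn1b and Scnn1g) were higher with PBS than in wild type, by log2 fold changes of 0.37, 1.20 and 1.26, in a contrast where 37.7% of all genes were higher. With RGLS4326 against PBS, Scnn1b fell by 0.41 on the log2 scale (adjusted p = 0.00989, edgeR) and Scnn1g by 0.33 (adjusted p = 0.0191, edgeR), and Scnn1a had −0.07 (adjusted p = 0.427, edgeR), beside 6.66% of all genes lower. The 3 principal cell markers, Scnn1b and Scnn1g still passed without RGLS4326 mouse 9 (adjusted p 0.00504 to 0.0395, edgeR).

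Hsd11b1, at chr1:193221634-193264075 on the minus strand, encodes the enzyme that regenerates corticosteroid and did not pass the test in any contrast. Wild-type mice read 120, 302, 155, 161 and 168 CPM, PBS mice 117 to 293 CPM (median 149) and RGLS4326 mice 114 to 302 CPM (median 201). Of the PBS mice 11 of 12, and of the RGLS4326 mice 13 of 14, were within the wild-type range, whose upper end is wild-type mouse 2. Without that mouse the range was 120 to 168 CPM, with 7 PBS mice inside it and 4 above and 3 RGLS4326 mice inside it and 10 above. The log2 fold change was −0.10 (95% interval −0.56 to 0.35) for PBS against wild type and 0.30 (−0.03 to 0.64) for RGLS4326 against PBS. Wild-type mouse 2, at 302 CPM, set the sign of the first, which was 0.16 without that mouse (adjusted p = 0.529, edgeR), and the RGLS4326 against wild type value moved from 0.20 to 0.47 (adjusted p = 0.0757). On the scale of CPM per kilobase of the longest coding transcript, which allows levels to be set beside each other, Hsd11b1 averaged 112 ± 43.1 (SD, n = 5) and Hsd11b2 84.1 ± 7.04 (SD, n = 5) in wild type. With PBS the averages were 104 ± 32.4 and 247 ± 32.4 (SD, n = 12), and with RGLS4326 128 ± 38.2 and 197 ± 41.2 (SD, n = 14). The inactivating enzyme thus had the higher mean level per length in both Pcy/CD1 groups. RGLS4326 mouse 10 went the other way, with 302 CPM of Hsd11b1 and 297 CPM of Hsd11b2, the longer transcript. The wild-type mean of Hsd11b1 includes wild-type mouse 2.

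Among the other induced genes, Klf9 was lower in disease and higher with drug. Klf9 encodes a Krüppel-like transcription factor that hormone receptors induce, and it lies at chr19:23141226-23168134 on the plus strand. Wild-type mice read 169, 183, 169, 183 and 171 CPM, PBS mice 57.4 to 114 CPM (median 76.7) and RGLS4326 mice 70.8 to 152 CPM (median 106). All 12 PBS and all 14 RGLS4326 mice were below the lowest wild-type mouse, while 5 RGLS4326 mice were above the highest PBS mouse and 12 above the PBS median. Klf9 fell by 1.14 on the log2 scale (standard error 0.15) with PBS against wild type (adjusted p = 1.7e-07, edgeR) and rose by 0.44 (standard error 0.12) with RGLS4326 against PBS (adjusted p = 0.0216, edgeR). Without RGLS4326 mouse 9 the rise was 0.40 (adjusted p = 0.0359, edgeR). The call ends if an absolute log2 fold change over 0.5 is also required. It is the gene with the miR-17 match printed above, and the part of that match in the rise was not tested.

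Zbtb16, a zinc finger transcription factor gene that glucocorticoids induce strongly in many cells, had the lowest level of the set. It lies at chr9:48654297-48836222 on the minus strand, and 19 to 157 counts per mouse stand behind its values. Wild-type mice read 4.60, 4.22, 4.38, 4.97 and 4.64 CPM, PBS mice 1.13 to 3.82 CPM (median 2.10) and RGLS4326 mice 1.61 to 8.03 CPM (median 3.88). Every PBS mouse was below the wild-type range. The RGLS4326 mice spread across it, with 8 below and 6 above it and none inside. Zbtb16 fell by 0.99 on the log2 scale (standard error 0.29) with PBS against wild type (adjusted p = 0.0028, edgeR) and rose by 0.89 (standard error 0.22) with RGLS4326 against PBS (adjusted p = 0.0143, edgeR), to a mean for which no difference from wild type passed (log2 fold change −0.09, 95% interval −0.67 to 0.48). Without RGLS4326 mouse 9, the highest at 8.03 CPM, the rise was 0.79 (adjusted p = 0.0255, edgeR) and the value against wild type −0.19 (adjusted p = 0.536).

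Tsc22d3 and Sgk1, which are classical early targets of the receptor, were lower in disease and had no rise with drug that passed the test. Tsc22d3 encodes Gilz, an anti-inflammatory leucine zipper protein, and lies at X:140539528-140600659 on the minus strand. It read 52.3, 64.7, 55.0, 58.3 and 38.1 CPM in wild type, 32.4 to 47.1 CPM with PBS (median 36.3) and 26.1 to 64.0 CPM with RGLS4326 (median 39.8). Of the PBS mice, 8 of 12 were below the wild-type range, which is set at its lower end by wild-type mouse 5. Tsc22d3, like Sgk1 below, had a disease value just under 0.5 in size, so that the call ends if an absolute log2 fold change over 0.5 is also required. Tsc22d3 fell by 0.49 on the log2 scale (standard error 0.15) with PBS against wild type (adjusted p = 0.0046, edgeR), but in the third index series, where mouse 5 is the only wild-type mouse, the value was 0.12. Its RGLS4326 against PBS value was 0.09 (95% interval −0.14 to 0.32, adjusted p = 0.567, edgeR) and 0.03 without RGLS4326 mouse 9 (adjusted p = 0.869), with 3 treated mice above and 3 below the whole PBS range. Its call against wild type with RGLS4326 (−0.40, adjusted p = 0.0202, edgeR) was lost without wild-type mouse 2 (adjusted p = 0.0903), without wild-type mouse 4 (0.0551) and with only those 2 groups in the fit (0.0544).

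Sgk1, at chr10:21882184-21999903 on the plus strand, read 40.9, 74.6, 60.7, 66.5 and 73.6 CPM in wild type. PBS mice ranged from 27.1 to 68.3 CPM (median 43.3) and RGLS4326 mice from 38.5 to 85.0 CPM (median 47.0). Wild-type mouse 1 lay among the PBS mice, and 8 of 12 PBS mice were within the wild-type range. Sgk1 fell by 0.49 on the log2 scale (standard error 0.17) with PBS against wild type (adjusted p = 0.0111, edgeR), and with RGLS4326 against PBS it had 0.17 (95% interval −0.09 to 0.44, adjusted p = 0.324, edgeR), and 0.10 without RGLS4326 mouse 9 (adjusted p = 0.581). Against wild type its RGLS4326 value of −0.32 missed the threshold (adjusted p = 0.0989, edgeR) and passed it without RGLS4326 mouse 9 (−0.39, adjusted p = 0.0248) or without wild-type mouse 1 (−0.43, adjusted p = 0.0318).

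No comparison of RGLS4326 with PBS passed within a single index series, where 4 or 5 treated mice stood against 4 PBS mice. There 0 genes of all those tested passed the adjustment (edgeR), with 280, 2981 and 3045 at an unadjusted p under 0.05, of which 1, 4 and 2 were among the 7 genes here. The 3 called genes kept their sign in each series: Zbtb16 had 0.84, 1.03 and 0.75, Klf9 0.23, 0.60 and 0.42, and Hsd11b2 −0.12, −0.53 and −0.30. With index series as a term in the fit of all mice, the same 3 genes passed (adjusted p 0.0174 for Zbtb16, 0.0212 for Klf9 and 0.0373 for Hsd11b2, edgeR). For PBS against wild type, Klf9, Nr3c1 and Hsd11b2 passed in the first and second series on their own, with 2 wild-type mice each. There 26.3% and 23.4% of all genes tested were higher and 25.6% and 22.1% lower. The third series has 1 wild-type mouse, so no call is read from it, and its log2 fold changes were −1.23, −1.0 and 1.79.

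Within the Pcy/CD1 groups, Lcn2 was used as a gauge of injury, since it encodes Ngal, a protein that damaged tubules make. Its level ranged from 205 to 1205 CPM with PBS and from 2.76 to 607 CPM with RGLS4326. Of the 16 relations computed between Lcn2 and the 8 genes (2 groups, log2(CPM + 1), two-sided permutation tests of mice with 100000 resamples, Benjamini-Hochberg adjustment over the 16), 10 passed by Spearman's rho. Many genes were related to Lcn2 in these kidneys: at the size of rho that an unadjusted permutation p of 0.05 requires (over 0.58 with PBS and 0.53 with RGLS4326), 48.1% and 41.8% of the 15184 other genes tested were past it, as were 3 and 7 of the 8 genes here, so a relation with Lcn2 is not particular to the set. Mice with more Lcn2 had less receptor transcript. For Nr3c1, rho was −0.90 and Pearson's r −0.94 over the 12 PBS mice (permutation p = 2.2e-04 and 5.0e-05, adjusted 0.0015 and 4.0e-04), and rho was −0.79 and r −0.82 over the 14 RGLS4326 mice (permutation p = 0.0011 and 9.0e-05, adjusted 0.0035 and 4.8e-04). Without the 2 mice farthest from the median of Lcn2, r was −0.92 and −0.82.

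Klf9 behaved alike, with rho of −0.89 and r of −0.88 with PBS (permutation p = 2.7e-04 and 2.4e-04, adjusted 0.0015 and 7.7e-04) and rho of −0.76 and r of −0.67 with RGLS4326 (permutation p = 0.0021 and 0.0012, adjusted 0.0057 and 0.0027). Without the 2 farthest mice, r was −0.83 in both groups. Hsd11b2 had the opposite sign. Over the 14 RGLS4326 mice its rho was 0.85 and r 0.96 (permutation p = 2.8e-04 and 3.0e-05, adjusted 0.0015 and 4.0e-04), and r was 0.82 without RGLS4326 mouse 9. With PBS its rho of 0.48 did not pass (r 0.61, permutation p = 0.121 and 0.0368, adjusted 0.161 and 0.0535).

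For Fkbp5 with PBS the relation did not pass, and rho was −0.05 and r −0.01 over 12 mice (permutation p = 0.886 and 0.980, adjusted 0.886 and 0.980). With RGLS4326 it had rho of −0.67 and r of −0.60 over 14 mice (permutation p = 0.0105 and 0.0033, adjusted 0.0186 and 0.0060). That relation weakened to rho of −0.59 without RGLS4326 mouse 9 (adjusted p = 0.0599, permutation test), where r was −0.59. Without the 2 farthest mice rho was −0.48 and r −0.49 (permutation p = 0.109 for r), so r was smaller and its unadjusted p no longer under 0.05. The difference between the 2 groups in this relation was not tested.

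Sgk1 followed Lcn2 with RGLS4326 (rho −0.80, r −0.82, permutation p = 7.2e-04 and 2.4e-04, adjusted 0.0029 and 7.7e-04), with r of −0.79 without the 2 farthest mice, and had rho of −0.42 with PBS (adjusted p = 0.217, permutation test). Tsc22d3 had rho of −0.69 and r of −0.66 with RGLS4326 (permutation p = 0.0081 and 0.0034, adjusted 0.0162 and 0.0060), and rho was −0.62 without RGLS4326 mouse 9 (adjusted p = 0.0498, permutation test). Without the 2 farthest mice its rho was −0.51 and its r −0.37 (permutation p = 0.231 for r), so r was smaller and its unadjusted p no longer under 0.05. Zbtb16 changed sign between the groups. Its rho with Lcn2 was 0.67 over the 12 PBS mice (r 0.63, permutation p = 0.0211 and 0.0312, adjusted 0.0338 and 0.0499) and −0.73 over the 14 RGLS4326 mice (r −0.66, permutation p = 0.0043 and 0.0012, adjusted 0.0098 and 0.0027). The PBS relation of Zbtb16 had rho of 0.49 and r of 0.39 without the 2 farthest mice (permutation p = 0.263 for r). There r was smaller and its unadjusted p no longer under 0.05, and the difference between the groups was not tested. Hsd11b1 passed in neither group (rho −0.55 and −0.23, adjusted p = 0.0964 and 0.465, permutation test), and its r with RGLS4326 turned from 0.29 over 14 mice to −0.54 without mouse 9. As deviations from the index series means, rho was −0.89 and −0.73 for Klf9, −0.88 and −0.80 for Nr3c1, 0.53 and 0.89 for Hsd11b2 and 0.02 and −0.59 for Fkbp5 with PBS and RGLS4326.

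**Figure D3:**
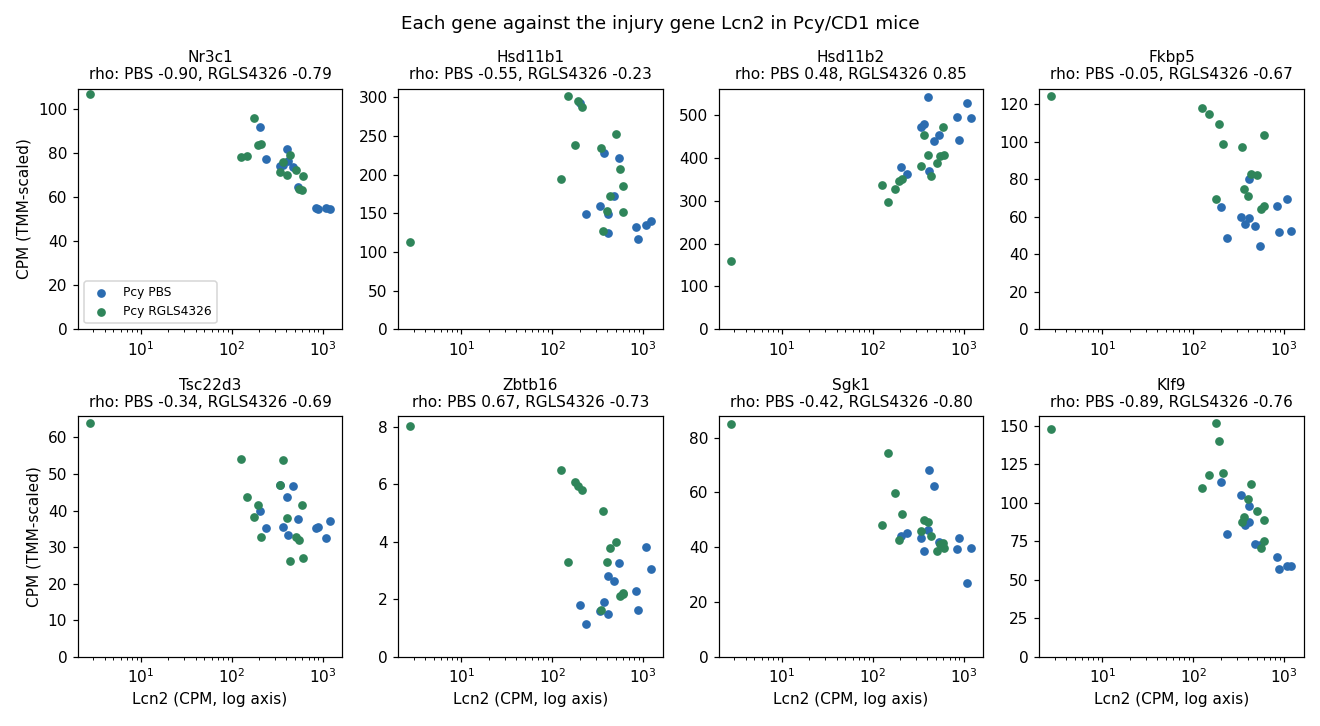
CPM of each gene (vertical axes) against Lcn2 in CPM (horizontal log axes) in 12 PBS and 14 RGLS4326 mice, 1 point a mouse, with Spearman's rho above each panel. Nr3c1 and Klf9 decline along Lcn2 in both groups, Hsd11b2 rises among RGLS4326 mice (rho 0.85; the PBS relation did not pass), and Fkbp5 has rho of −0.05 among PBS mice, while the point at the far left is RGLS4326 mouse 9.

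From mouse to mouse within a group, no relation of Fkbp5 with another gene of the set passed. Of 14 relations of Fkbp5 with the 7 other genes within the PBS and RGLS4326 groups, 0 passed the Benjamini-Hochberg adjustment over the 14 and 2 had an unadjusted Spearman p under 0.05 (two-sided permutation tests, 100000 resamples), both with RGLS4326. These were Tsc22d3 (rho 0.67, r 0.61, permutation p = 0.0115 and 0.0217, adjusted 0.161 and 0.152) and Hsd11b2 (rho −0.56, r −0.55, permutation p = 0.0391 and 0.0189, adjusted 0.273 and 0.152). Without the 2 mice farthest from the median of Fkbp5, r was 0.46 and −0.38. As deviations from the index series means, rho was 0.27 for Tsc22d3 and −0.68 for Hsd11b2. Without RGLS4326 mouse 9, rho was 0.58 for Tsc22d3 and −0.45 for Hsd11b2. Leaving it out also moved rho of Zbtb16 from 0.47 to 0.34 and of Hsd11b1 from 0.17 to 0.47, and no relation passed. With PBS the 7 rho values lay between −0.34 (Tsc22d3) and 0.34 (Klf9).

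The genes whose pattern was most like that of Fkbp5 lay outside the set. Over all 31 mice, Spearman's rho of log2(CPM + 1) among 11522 genes averaging 5 CPM or more was highest for Dnaja4, which encodes a cochaperone of Hsp70 (0.90), followed by D1Ertd622e (0.89), B4galt5 (0.87), Map3k7cl (0.87) and the small GTPase gene Arf4 (0.87). Klf9 ranked 373 (0.76), Nr3c1 2293 (0.63), Tsc22d3 3687 (0.51) and Sgk1 4071 (0.46), and Hsd11b2 was near the other end at 11180 (−0.74). Over the 26 Pcy/CD1 mice as deviations from their group means, Map3k7cl (0.82), the cap-binding protein gene Ncbp1 (0.81), Fbxl14 (0.74), Uap1 (0.73) and Tnfrsf21 (0.70) led. On that measure Tsc22d3 was at 0.37, Zbtb16 at 0.35, Klf9 at 0.34, Nr3c1 at 0.25 and Hsd11b2 at −0.33. These are descriptions over mice that share library scaling and, in the first case, the group differences. Map3k7cl, the gene in both lists, averaged 53.4 CPM in wild type, 31.9 CPM with PBS and 40.2 CPM with RGLS4326.

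Other genes widely known to be induced by glucocorticoids were called in disease about as often as any gene. Of 27 listed, 26 were tested and Cd163 did not pass the filter. Between PBS and wild type 10 were higher, 9 lower and 7 did not pass, with a median log2 fold change of 0.06 beside 0.01 over all genes. Over all genes the shares were 37.7% higher and 36.6% lower, so these counts are near the background in both directions. Those that were lower included Pck1 of gluconeogenesis (−1.22), Errfi1, an inhibitor of the EGF receptor (−1.31), and Klf15 (−0.88). Those that were higher included Cdkn1a, the cell cycle inhibitor p21 (2.49), Cebpd (2.21) and Anxa1, annexin A1 (1.83). Between RGLS4326 and PBS 4 were higher, 1 was lower and 21 did not pass (median 0.04, all genes −0.004), against 9.15% higher and 6.66% lower over all genes. By the smallest p-values of that contrast, Errfi1 averaged 899 ± 73.1 CPM (SD) over 5 wild-type, 362 ± 77.2 CPM over 12 PBS and 540 ± 126 CPM over 14 RGLS4326 mice, a rise of 0.58 with drug (standard error 0.12, adjusted p = 0.00581, edgeR). Hif3a rose by 0.86 (adjusted p = 0.0180) from a level of 0.567 CPM with PBS, and Usp2, a deubiquitinase gene, by 0.52 (adjusted p = 0.0269, edgeR). Without RGLS4326 mouse 9 these 3 still passed (adjusted p 0.00945, 0.0329 and 0.0470), and the other 2 calls of the list, Pck1 (higher) and Anxa1 (lower), were lost (0.0706 and 0.0638). Pck1, Cdkn1a, Cebpd, Anxa1 and Klf15 were named after their values were seen.

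Of 10 chaperones and cochaperones of the receptor, 7 were lower with PBS than in wild type (36.6% of all genes were) and 3 did not pass, with a median of −0.21 beside 0.01 over all genes. With RGLS4326 against PBS 2 were higher and 8 did not pass, against 9.15% of all genes higher. Ptges3, the p23 cochaperone, averaged 71.5 CPM in wild type, 54.6 CPM with PBS and 66.1 CPM with RGLS4326, and rose by 0.27 with drug (standard error 0.04, adjusted p = 0.00116, edgeR). Hspa8, a constitutive Hsp70, rose by 0.31 (adjusted p = 0.0373, edgeR), a call lost without RGLS4326 mouse 9 (adjusted p = 0.0638), while that of Ptges3 held (0.00101), and Hsp90aa1 had 0.13 (adjusted p = 0.113, edgeR). Fkbp4, the cochaperone that competes with Fkbp5 on the receptor complex and was named after its values were seen, had −0.18 for PBS against wild type (adjusted p = 0.0041) and 0.04 for RGLS4326 against PBS (adjusted p = 0.533, edgeR).

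Of 11 coactivators and corepressors of the receptor, 8 were lower and 2 higher with PBS than in wild type (median −0.37), beside 36.6% and 37.7% of all genes. With RGLS4326 against PBS 1 of the 11, the coactivator Ncoa3, was higher (0.17, adjusted p = 0.0323, edgeR), which is near the 9.15% over all genes, and it did not pass without RGLS4326 mouse 9 (adjusted p = 0.0559). Its relatives Ncoa2 (0.25, adjusted p = 0.0517) and the corepressor Ncor1 (0.23, adjusted p = 0.0604, edgeR) missed the threshold. Of 6 genes of corticosteroid handling, 5 were tested, since Serpina6 did not pass the filter, and 4 were lower with PBS than in wild type (36.6% of all genes were), while the 5 did not pass between RGLS4326 and PBS. There Srd5a1, a steroid 5α-reductase gene, had −0.22 (adjusted p = 0.0637), H6pd 0.06 (adjusted p = 0.353) and Nr3c2, the mineralocorticoid receptor, −0.13 (adjusted p = 0.358, edgeR). H6pd supplies the cofactor of the enzyme that Hsd11b1 encodes, and it fell by 0.20 on the log2 scale in disease (adjusted p = 0.0077, edgeR).

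**Figure D4:**
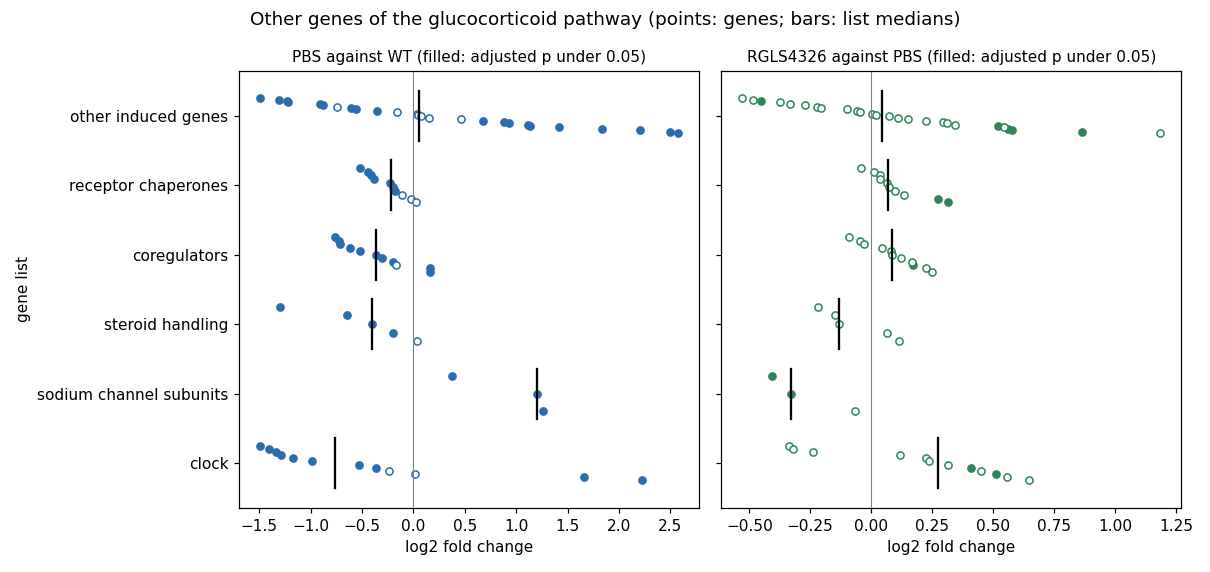
Log2 fold change (horizontal axes) of each tested gene of 6 lists in PBS mice relative to wild type and in RGLS4326 mice relative to PBS, with filled points for adjusted p under 0.05 and bars for list medians. The 26 other induced genes spread to both sides of 0 in disease (10 higher, 9 lower), while the chaperones lie mostly to its left and the 3 sodium channel subunits to its right.

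The clock was examined because Klf9 is known to cycle with it in several tissues. Of 12 clock genes tested (Ciart was not among the symbols in the files), 8 were lower and 2 higher with PBS than in wild type (median −0.76), beside 36.6% lower and 37.7% higher over all genes. With RGLS4326 against PBS 2 were higher and 10 did not pass (median 0.27), beside 9.15% higher over all genes. These 2 were Hlf (0.51, adjusted p = 0.0288) and Nr1d2 (0.41, adjusted p = 0.0384, edgeR), and Per2 had 0.64 (adjusted p = 0.0556, edgeR). Without RGLS4326 mouse 9 neither Hlf nor Nr1d2 passed (adjusted p = 0.0515 and 0.0688, edgeR). The summed level of the 12 clock genes was 1308 to 1596 CPM in wild type, 531 to 1010 CPM with PBS and 539 to 1370 CPM with RGLS4326, where mouse 9 was the highest. The time of day of the harvest is not given in the sources used here, and its part in the results was not tested.

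Markers of other cell types moved with disease as well, beside 36.6% of all genes lower and 37.7% higher with PBS than in wild type and 9.15% higher with RGLS4326 than with PBS. All 8 of 8 proximal tubule markers were lower with PBS than in wild type and 2 were higher with RGLS4326 than with PBS (1 without RGLS4326 mouse 9). Their sum was 16307 to 17596 CPM in wild type, 4856 to 9837 CPM with PBS and 6437 to 15130 CPM with RGLS4326 (median 9020), where mouse 9 was the highest. All 4 fibroblast markers, 3 of 3 macrophage markers measured and all 4 lymphocyte markers were higher with PBS than in wild type, with sums of 346 to 733, 212 to 330 and 6.63 to 16.1 CPM against 84.6 to 136, 136 to 140 and 2.97 to 4.79 CPM, and these 11 genes did not pass between RGLS4326 and PBS. The injury genes Lcn2 and Havcr1 were both higher with PBS than in wild type (6.68 and 1.85) and had −0.81 (adjusted p = 0.148) and 0.13 (adjusted p = 0.705, edgeR) with RGLS4326 against PBS. The lists for other kidney cells hold 3 or 4 genes each, too few to be told from those shares. The principal cell, fibroblast, macrophage and lymphocyte lists are as short. With PBS against wild type, 1 of 3 thick limb genes was lower and 1 higher, and 2 of 3 distal convoluted tubule genes were lower. In that contrast 2 of 4 intercalated cell genes were lower and 2 higher, 1 of 4 podocyte genes was higher and 1 of 4 endothelial genes lower. Of 5 liver genes, 3 were lower in disease and 2 higher with drug, and their sum was 458 CPM in RGLS4326 mouse 9, the highest of its group (median 50.2), and without that mouse neither of the 2, Alb and Apoa2, passed (adjusted p = 0.161 and 0.152, edgeR). Of the thick limb, distal convoluted tubule, intercalated cell, podocyte and endothelial genes, 1 passed between RGLS4326 and PBS, Pvalb of the distal convoluted tubule, which was higher (1.27, adjusted p = 0.0400, edgeR), had 0.42 without RGLS4326 mouse 9 (adjusted p = 0.151) and was named after its values were seen. The 4 adipocyte genes and Star, the 1 adrenal gene that passed the filter, did not pass in either contrast. The part of cell composition in the values of the 8 genes was not tested.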

How the data were processed

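Kidney RNA of 31 mice was sequenced by the authors from stranded poly(A) libraries as paired reads. Per the labels and the study's methods, reads were trimmed with Trim Galore, mapped to GRCm38 with STAR and counted per gene with HTSeq 0.6.1, with FastQC 0.11.2, SAMtools 1.1 and Picard 1.119 also listed. The counting annotation and strand setting are not given in the sources used here, so reads of overlapping or antisense genes may be mixed. What the authors deposited are raw, unnormalized counts, with 23509 genes in each mouse. Between 26.9% and 31.1% of the counted reads in a file fell on its summary lines, which name no gene and stayed out of library sizes and tests.

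Genes passing filterByExpr (15185) were fitted with edgeR 4.0.16 in R 4.3.3 (TMM, quasi-likelihood, 1 coefficient per group, 31 mice, no covariate), and p-values were adjusted over all genes (Benjamini-Hochberg, threshold 0.05). Each standard error was approximated from the fold change and the F statistic (its size over the root of F), and 95% intervals use the t quantile at the degrees of freedom of each gene's test. Correlations used log2(CPM + 1). Those with a test were made within groups only and called where the adjusted p of rho was under 0.05, and the ranking of genes by likeness to Fkbp5 over all mice has no test. The scripts were tested on simulated data. The labels number the mice within groups, and p-values measure the spread between these mice.

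The 8 genes, the gene lists and the tests were chosen with earlier results of these data known. Named genes are the 8, the 3 genes of each pathway list with the smallest RGLS4326 against PBS p-values and the 5 most like Fkbp5 on each measure, beside those said to be named after their values were seen. Marker lists are given by counts and sums of CPM. Locations and 3′UTRs are from GENCODE vM21 (GRCm38), the longest coding transcript giving lengths, and promoters and microRNAs from RefSeq tables (GRCm38.p6). Depth limits Zbtb16 most. Alternatives covered normalization, filter, DESeq2 1.42.0, the mice in the fit, index series, a replicate block, single mice left out, a size threshold, permutation tests, pseudocounts and series-centred values. Python 3.11.15, numpy, scipy and pandas served for the correlations.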

Additional observations from a re-analysis of the deposited data

Results flagged for a closer look

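Among the 8 genes in the 5 wild-type mice, 1 value stood apart from its group. Wild-type mouse 2 read 302 CPM of Hsd11b1, whereas the other 4 wild-type mice read 120 to 168 CPM, and its gap to the next mouse was 0.737 of the group's range, above Dixon's 95% critical value of 0.71 for 5 samples. Chance flags about 1 in 20 such groups, and 8 were examined. The same mouse had the highest wild-type Fkbp5 (169 CPM), Tsc22d3 (64.7 CPM) and Sgk1 (74.6 CPM) and the lowest Zbtb16 (4.22 CPM). Its Klf9 (183 CPM) was level with that of wild-type mouse 4.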

How the results depend on the processing

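RLE normalization, DESeq2's Wald test, no filter, a minimum mean of 1 CPM and index series as a covariate kept the direction and the side of the threshold of every fold change given for the 8 genes in the 3 contrasts. The permutation tests of the 7 tested genes kept the direction. Their p-values are unadjusted, and fell on the same side of 0.05 as the adjusted p of edgeR. For Tsc22d3 with RGLS4326 against wild type the unadjusted permutation p was 0.0382. Of the 7 genes, 6 passed between PBS and wild type, 3 between RGLS4326 and PBS and 4 between RGLS4326 and wild type. Alone, with fewer mice in each, index series 1 and 2 gave 4 and 3 for PBS against wild type. Of all genes 26.3% and 23.4% were higher there and 25.6% and 22.1% lower. For RGLS4326 against wild type they gave 4 and 0, where 23.8% and 1.95% of all genes were higher and 23.5% and 0.632% lower. For RGLS4326 against PBS, series 1, 2 and 3 gave 0, 0 and 0, with 0 genes passing among all those tested. Series 3 has 1 wild-type mouse, so no count against wild type is given for it. Leaving out 1 mouse gave 6 in each case, 2 to 3 and 3 to 5. Over all genes these fits called 36.2% to 38.1% higher and 34.9% to 36.9% lower for PBS against wild type. For RGLS4326 against PBS they called 2.43% to 14.5% higher and 1.65% to 11.9% lower. For RGLS4326 against wild type the shares were 30.4% to 34% higher and 29.9% to 33.5% lower. Requiring an absolute log2 fold change over 0.5 left 1 gene, Zbtb16, for RGLS4326 against PBS, and ended the calls of Tsc22d3 (−0.49) and Sgk1 (−0.49) for PBS against wild type and of Tsc22d3 (−0.40) for RGLS4326 against wild type. With single series or mice, signs turned for Tsc22d3 (PBS against wild type 0.12 and RGLS4326 against wild type 0.35 in series 3, RGLS4326 against PBS −0.13 in series 1), Hsd11b1 (PBS against wild type 0.10 in series 2 and 0.16 without wild-type mouse 2, in a range of −0.22 to 0.16 over single mice left out) and Zbtb16 (RGLS4326 against wild type 0.16 in series 2). The cause was not tested. Same-numbered mice are different animals and did not deviate together (mean correlation −0.08 over 12 PBS and RGLS4326 pairs, range −0.47 to 0.51, 4 pairs over 0.1). With the replicate block, 0 of the 7 genes passed for RGLS4326 against PBS (1.32% of all genes higher and 0.678% lower; 3 at an unadjusted p under 0.05; adjusted p 0.0602 for Zbtb16, 0.0547 for Klf9 and 0.0672 for Hsd11b2, edgeR), Sgk1 passed for RGLS4326 against wild type (adjusted p = 0.0204) and Hsd11b1 had 0.014 for PBS against wild type. Of the correlations with Lcn2, 10 of 16 passed, 9 without RGLS4326 mouse 9 (Fkbp5 lost), and 11 as deviations from index series means (Tsc22d3 with PBS gained). Pseudocounts of 0.1 and 5 changed no call.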
